A study of Mus musculus with 27 samples.

Results

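Transcriptomes of macrophages grown from bone marrow irradiated with a FLASH proton beam were compared with those of macrophages grown from marrow irradiated with a standard proton beam at the same dose. The comparison used 18 of the 27 libraries of the series, 9 from FLASH and 9 from standard irradiation. The other 9 libraries came from non-irradiated cells and are given as the background level beside the values. Bone marrow cells were taken from the femur and tibia of C57/B6 mice, whose labels name no modified gene and give no age, and kept in RPMI-1640 with 5% FBS. The cells received 5 Gy of FLASH or standard protons, or no radiation. All cells then spent 7 days in 10 ng/ml CSF-1, followed by 2 days in 100 ng/ml LPS (labelled M1), 20 ng/ml IL-4 (labelled M2) or control medium (labelled M0). Irradiation therefore preceded differentiation, and the RNA was taken from the cells that survived and matured, not from macrophages irradiated as such. Each combination of irradiation mode and labelled state held 3 libraries, and the labels do not say whether these were separate animals or cultures, so a p-value here speaks only of library-to-library spread.

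FLASH irradiation delivers its dose at a far higher rate than a standard beam and is studied because normal tissue is often damaged less at the same dose. Ionizing radiation breaks DNA, and the transcription factor p53 then induces a set of genes that halt the cell cycle, repair DNA or trigger cell death, among them Cdkn1a, the inhibitor of cyclin-dependent kinases. Marrow progenitors become macrophages under CSF-1. LPS drives these cells to an inflammatory state marked by Irg1, the enzyme that makes itaconate, and IL-4 to an alternative state marked by Arg1, the arginase that splits arginine to ornithine and urea.

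The state labels of replicate 1 went against these markers in 5 libraries. The members of each class were therefore chosen by their own Irg1 and Arg1 values, and those of each mode by the label. The classes were Irg1-high at 500 CPM or more, Arg1-high at 100 CPM or more among the rest, and low in both otherwise. CPM here are read counts scaled to a library size that was adjusted by a factor per library. Since the class was read from the values, it served only as a covariate, Irg1 and Arg1 were not tested, and genes that follow LPS or IL-4 cannot tell anything about the class itself. Among the 18 libraries the margins were wide: the lowest Irg1 value in the Irg1-high class was 1282 CPM and the highest outside it 30.9 CPM, and the lowest Arg1 value in the Arg1-high class was 631 CPM and the highest outside it 12.2 CPM. The library labelled FLASH M0 replicate 1 had 655 CPM of Arg1 and the library labelled standard M1 replicate 1 had 643 CPM, and both fell in the Arg1-high class. The libraries labelled FLASH M2 replicate 1 and standard M2 replicate 1 had 1557 and 1715 CPM of Irg1 and fell in the Irg1-high class. The library labelled FLASH M1 replicate 1 had 14.9 CPM of Irg1 and 4.64 CPM of Arg1 and was low in both. The other 13 irradiated libraries and all 9 non-irradiated libraries fell in the class that their label implies. Each class held 3 FLASH and 3 standard libraries, 1 of each replicate number, and values below are listed in the order of replicates 1, 2 and 3. Nothing in these 2 genes bears on whether the irradiation mode of the 5 libraries is as labelled, and the comparison takes the mode from the label.

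**Figure D1:**
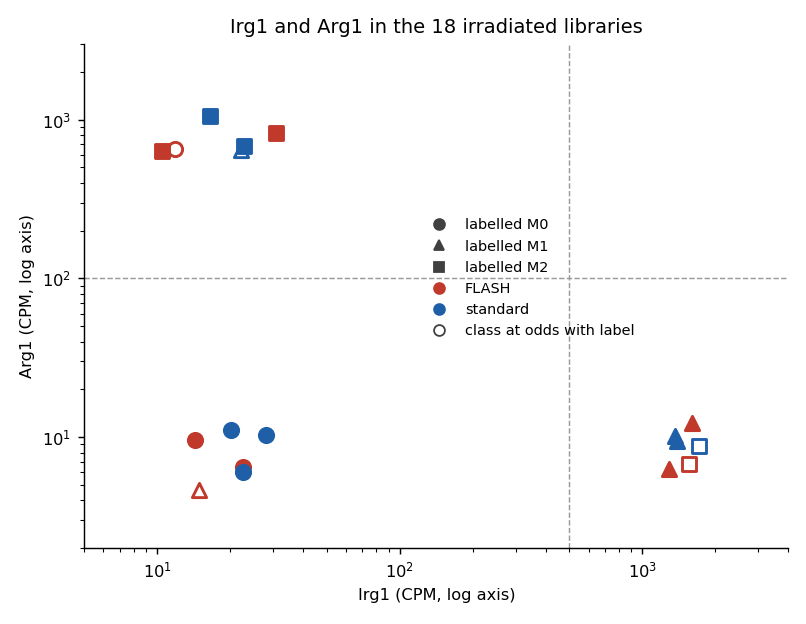
Irg1 against Arg1 in CPM, both on log axes, for the 18 irradiated libraries, with colour for irradiation mode, shape for the labelled state and open symbols for the 5 libraries at odds with their label. Dashed lines mark 500 CPM of Irg1 and 100 CPM of Arg1, and the libraries form 3 separate groups of 6.

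Each library rested on 20.68 to 25.02 M assigned reads (M, mega), as read from the smallest steps of the deposited values, and 11577 to 12127 genes reached 1 CPM. FLASH and standard libraries had 23.8 ± 1.05 and 23.1 ± 1.39 M reads (SD, n = 9 each), with a two-sided exact permutation p of 0.251 within classes (adjusted p = 0.992 over 4 library quantities). The summed level of 17 macrophage genes (Emr1, Csf1r, Cd68, Lyz2 and others) was 34100 to 59020 CPM in FLASH and 33900 to 57680 CPM in standard libraries. The highest sum of any other cell type list in these libraries was 9047 CPM, for monocyte genes. The labelled cell type was borne out by this level. None of the 17 was near 0 in every library, but large-intestine genes also met that condition, so presence alone says little. Markers of gut epithelium, which a macrophage culture should lack, were present in all libraries and differed between them; they are described last.

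Averaged over the 3 classes, no gene of 12906 tested passed the test between FLASH and standard libraries (limma on log2(CPM + 0.5), adjusted p below 0.05; 0% called), and 727 (5.63%) had an unadjusted p below 0.05, of which 377 were higher and 350 lower in FLASH. The median difference over all genes was -0.0028 on the log2 scale, and 48.9% of the genes had a positive one. The 95% interval of the difference lay within 1 log2 unit of 0, a doubling or halving, for 12433 genes (96.3%), and for 98.8% of the 9551 genes that averaged 5 CPM or more. The smallest adjusted p was 0.108, for AI747448. Within single classes, 3 libraries against 3, the corresponding counts were 0 genes called and 429 (3.32%) unadjusted in the Irg1-high class (1.56% higher and 1.77% lower in FLASH), 1 gene called (Zfp462, 0.00775%) and 701 (5.43%) unadjusted in the Arg1-high class (2.75% and 2.68%), and 0 called and 555 (4.3%) unadjusted in the class low in both (2.21% and 2.09%). Intervals were wider there, and 82.8%, 82.4% and 82.1% of genes had one within 1 log2 unit in these classes. In bulk RNA, fewer cells of a type and less RNA per cell cannot be told apart, and this holds for every level below.

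Genes of the p53 response showed no called difference between the beams. Cdkn1a measured 672, 517 and 634 CPM in the FLASH libraries of the Irg1-high class and 639, 554 and 771 CPM in the standard ones. In the Arg1-high class it measured 787, 858 and 528 CPM after FLASH and 726, 765 and 630.0 CPM after standard protons, and in the class low in both 478, 550.2 and 572 against 507, 592 and 652 CPM. FLASH and standard values overlapped in each class. The 9 non-irradiated libraries had 168 to 353 CPM, below every irradiated library (not tested here). The difference between modes over the classes was -0.07 on the log2 scale (95% interval -0.28 to 0.13, limma adjusted p = 0.995).

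Other p53 targets also had small differences with narrow intervals. Phlda3, an inhibitor of Akt signaling, had 127 ± 37.2 CPM after FLASH and 134 ± 32.1 CPM after standard protons (SD over 9 libraries of 3 classes), a difference of -0.10 (-0.24 to 0.05), against 16.7 to 46.8 CPM without irradiation. Ccng1, cyclin G1, had 360.4 ± 30.7 and 376 ± 28.8 CPM (difference -0.06, -0.19 to 0.06), against 201 to 265 CPM. Mdm2, the ligase that degrades p53, had 240.4 ± 73.4 and 229 ± 69.8 CPM (0.07, -0.23 to 0.37). Bax, a pore-forming death protein, had 85.7 ± 9.66 and 85 ± 6.71 CPM (0.01, -0.12 to 0.13), and its non-irradiated libraries spanned the same range, 66.9 to 95.8 CPM. All 36 p53 targets on the list were tested and none was called. Their median difference was -0.04, their range -0.38 to 0.15, and all 36 intervals lay within 1 log2 unit of 0. The lowest difference belonged to Ak1, an adenylate kinase, with 64, 62.5 and 60.7 against 82.6, 88 and 88.3 CPM in the Arg1-high class, where the groups did not overlap. Over the classes it was -0.38 (-0.63 to -0.14, limma adjusted p = 0.508). It was -0.02 with the log2 sum of the stomach genes Gkn1, Gkn2 and Tff1 in each library as a covariate, an alternative chosen after the values were seen. That sum reached 25 CPM in 8 of 9 FLASH and in 2 of 9 standard libraries. This covariate largely follows the mode, so a change or turned sign under it cannot tell the 2 apart.

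**Figure D2:**
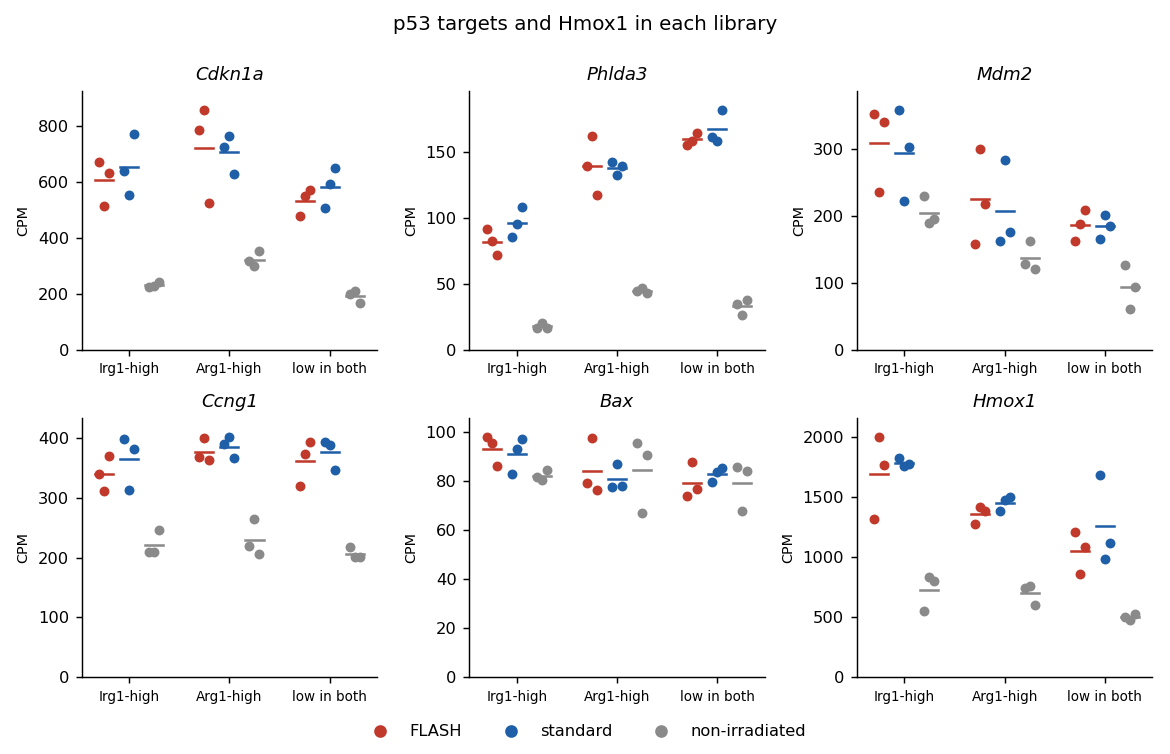
CPM of 5 p53 targets and Hmox1 in every library, by marker class (x axis) and irradiation (colour); dots are libraries, bars are means of 3, and the axes start at 0. FLASH and standard dots overlap in every class of the Cdkn1a panel, and all irradiated libraries lie above the non-irradiated maximum of 353 CPM.

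Genes of damage signaling, repair and oxidant defence gave no called difference either. Of 31 tested genes for damage signaling and repair, 4 had an unadjusted p below 0.05, all higher in FLASH (2.92% of all genes were higher at that p), and the median difference was -0.05. The smallest p among them was that of Atr, the kinase that answers stalled replication forks, at 17.1 ± 3.31 against 13.8 ± 2.12 CPM (0.28, 0.08 to 0.49, adjusted p = 0.662). Hmox1, the heme oxygenase induced by oxidants, had 1321, 2000 and 1767 against 1827, 1758 and 1778 CPM in the Irg1-high class and 1208, 857 and 1081 against 1683, 982 and 1118 CPM in the class low in both, with overlap. Over the classes Hmox1 differed by -0.15 (-0.35 to 0.06), and non-irradiated libraries had 472 to 834 CPM. The 28 oxidant defence genes had a median of -0.03, and all 28 intervals lay within 1 log2 unit. The 6 genes of the NADPH oxidase, the enzyme that makes superoxide in phagocytes, had differences from -0.06 to 0.11.

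Mki67, a marker of dividing cells, was at 40.6, 24.7 and 48.1 CPM in the FLASH libraries of the Irg1-high class and at 43.2, 21.8 and 45.5 CPM in the standard ones, with replicate 2 low in both. Over the classes it differed by 0.07 (-0.32 to 0.46). None of 36 proliferation genes was called or had an unadjusted p below 0.05. Among them Ccnd1, cyclin D1, had the smallest p, with 387 ± 132 against 459 ± 151 CPM (-0.26, -0.52 to 0, adjusted p = 0.896). Of 16 tested senescence genes, 2 had an unadjusted p below 0.05, both lower in FLASH (2.71% of all genes were lower at that p). Igfbp7, a secreted binder of growth factors, was one, at 3.27 ± 2.36 against 5.47 ± 2.36 CPM (-0.77, -1.37 to -0.18, adjusted p = 0.709).

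Inflammatory genes showed no called difference, and their intervals were wide. In the Irg1-high class Nos2, the inducible nitric oxide synthase, had 76.9, 20.3 and 75.2 CPM after FLASH and 85.6, 16.9 and 28 CPM after standard protons. The groups overlapped, and replicate 2 was low in both. Averaged over classes, Nos2 differed by 0.67 (-0.04 to 1.39, adjusted p = 0.910), and with that stomach gene covariate by -0.30, with the sign turned. Il1b, an interleukin, had 195, 163 and 246 against 233, 148 and 182 CPM in the Irg1-high class, and Tnf, a secreted cytokine, 158, 165 and 182 against 198, 151 and 144 CPM. Cxcl10, a chemokine for T cells, had 201, 104 and 208 against 202, 101 and 99.7 CPM, and Il6, another cytokine, 3.32, 2.83 and 4.96 against 4.74, 1.49 and 2.05 CPM. FLASH and standard values of all these genes overlapped in that class. Over the classes Il1b, Cxcl10 and Il6 differed by 0.10, 0.16 and 0.28, and with the covariate by -0.57, -0.42 and -0.12, with the sign turned. The 29 tested LPS response genes had a median difference of 0.004 over the classes and of 0.13 in the Irg1-high class, with none called. With the covariate these medians were -0.28 (2 of 29 positive) and -0.09, and leaving out 1 library gave 0.001 to 0.33 in the Irg1-high class. Many of these genes follow the marker that set the class.

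Of 35 interferon-stimulated genes, 32 had a positive difference (median 0.08), while none was called and none had an unadjusted p below 0.05. Rtp4, an interferon-induced receptor transporter, had 18 ± 6.86 CPM after FLASH and 14.3 ± 6.56 CPM after standard protons (0.38, -0.04 to 0.79, adjusted p = 0.933). The sign of the list's median did not hold when 1 library was left out, with medians between -0.02 and 0.19. With the stomach gene level as a covariate the median was -0.18, with 5 of 35 positive, but that covariate largely follows the mode.

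Among genes of the IL-4 response, Retnla, a secreted resistin-like protein of alternatively activated macrophages, had the lower mean in FLASH in each class. In the class low in both it measured 7.46, 20.9 and 13.6 CPM after FLASH and 33.2, 23.6 and 31.2 CPM after standard protons, and the groups did not overlap. In the Irg1-high class it measured 17.7, 13.1 and 20.7 against 20.2, 26.5 and 21.1 CPM, and in the Arg1-high class 848, 1306 and 1402 against 1081, 1444 and 1497 CPM, with overlap in both. Over the classes the difference was -0.58 on the log2 scale (-0.93 to -0.23), which did not pass the test (adjusted p = 0.491), and -0.19 with the stomach covariate. Of the 23 IL-4 response genes tested, 4 had an unadjusted p below 0.05 lower in FLASH and 1 higher over the classes, beside 2.71% and 2.92% of all genes. Their median was -0.10, and none was called. At the same p, 6 were lower and 1 higher in the class low in both, beside 2.09% and 2.21% of all genes. The Irg1-high class had 1 lower and 1 higher, beside 1.77% and 1.56%. The Arg1-high class had 0 lower and 0 higher, beside 2.68% and 2.75%. In the Arg1-high class Chil3, a chitinase-like lectin, had 7426, 6210 and 5814 against 6666, 5906 and 6483 CPM and Mrc1, the mannose receptor, 1491, 1625 and 1482 against 1363, 1434 and 1716 CPM. The differences of both in that class were near 0 (0.02 and 0.03).

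**Figure D3:**
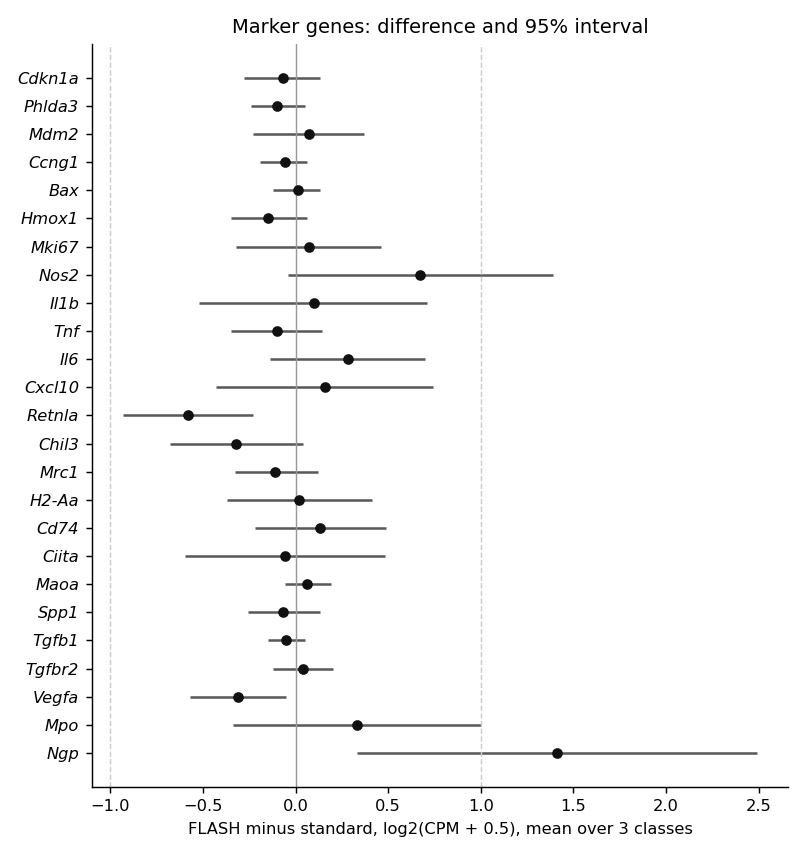
Difference between FLASH and standard libraries on the log2(CPM + 0.5) scale, averaged over the 3 classes, for 25 marker genes (dots) with 95% intervals (lines); dashed lines stand at a doubling and a halving. All intervals but those of Retnla, Vegfa and Ngp include 0, and none of the 25 genes passed the test across all genes.

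H2-Aa, Cd74 and Ciita, genes of the MHC class II system that presents antigen to T cells, lay lower in every irradiated library than in every non-irradiated library of the same class (not tested here), with no called difference between beams. H2-Aa had 13.9 to 71.1 CPM after FLASH, 10.4 to 108 CPM after standard protons and 86.8 to 935 CPM without irradiation. Cd74, the invariant chain, had 62.4 to 513, 40.6 to 587 and 302 to 3647 CPM in the same order, and Ciita, the activator of this gene set, 0.242 to 10.6, 1.24 to 8.65 and 5.13 to 86.2 CPM. The differences between modes were 0.02 (-0.37 to 0.41) for H2-Aa, 0.13 (-0.22 to 0.49) for Cd74 and -0.06 (-0.60 to 0.48) for Ciita.

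Spp1, the matrix protein osteopontin, had 5960, 7272 and 7886 against 7044, 7836 and 8350 CPM in the class low in both, where non-irradiated libraries had 2052, 1396 and 2339 CPM. Maoa, a mitochondrial amine oxidase, had 62.1 to 161 CPM after FLASH, 63.8 to 159 CPM after standard protons and 22.4 to 46.2 CPM without irradiation. Between modes the differences were -0.07 (-0.26 to 0.13) and 0.06 (-0.06 to 0.19). Tgfb1, the growth factor of wound repair and fibrosis, differed by -0.05 (-0.15 to 0.05) and its receptor Tgfbr2 by 0.04 (-0.12 to 0.20). Vegfa, a vessel growth factor, had 8.94, 8.96 and 8.66 against 11.4, 12.5 and 14.6 CPM in the Arg1-high class, without overlap, and over the classes a difference of -0.31 (-0.57 to -0.05, adjusted p = 0.763).

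No member of the other lists was called in the mean over classes. Ribosomal protein genes leaned to lower values in FLASH, 29 of 30 negative with a median of -0.08. In the Arg1-high class all 30 were negative with a median of -0.15, and 7 had an unadjusted p below 0.05 (2.68% of all genes were lower at that p). Of the same genes 12 were negative in the Irg1-high class, with a median of 0.02. In replicates 2 and 3 alone the median over the classes was -0.04, with 7 of 30 positive, and with the stomach covariate -0.02. That of the Arg1-high class was -0.08 without the 5 libraries, and -0.24 to -0.10 with 1 library left out. Whether the classes differ in this was not tested. Genes of glycolysis and hypoxia had a median of -0.07, with 3 of 23 lower and 1 higher at unadjusted p below 0.05, beside 2.71% and 2.92% of all genes. Among them Pfkl, a phosphofructokinase, had 56.5 ± 13.3 against 67.3 ± 16.1 CPM (-0.25, -0.46 to -0.05, adjusted p = 0.748), and with the stomach covariate the difference was 0.02, with the sign turned. The 25 oxidative phosphorylation genes, the 21 cholesterol synthesis genes and the 34 genes of phagocytosis and lysosomes had medians of -0.03, -0.05 and 0.01. Fosb, an immediate early transcription factor, had 0 to 3.94 CPM (median 1.37) after FLASH and 2.69 to 6.36 CPM (median 4.62) after standard protons. Its difference was -1.45 (-2.24 to -0.66, adjusted p = 0.344).

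Genes of the neutrophil lineage stood higher in some FLASH libraries. Of 13 tested genes of 17 listed, 11 had a positive difference and 5 an unadjusted p below 0.05, all higher in FLASH (2.92% of all genes were higher at that p), and none was called. The median difference was 0.465 over the classes, and 0.166 with 8 of 11 positive in replicates 2 and 3 alone. In the class low in both it was 0.366, and -0.24 with 3 of 11 positive in replicates 2 and 3 alone. Ngp, a granule protein of immature neutrophils, measured 10.3, 1.94 and 9.11 CPM in the FLASH libraries of the Irg1-high class, 25.1, 2.08 and 5.11 CPM in the Arg1-high class and 8.41, 2.82 and 1.84 CPM in the class low in both. The standard libraries had 0.225 to 4.05 CPM and the non-irradiated ones 8.09 to 258 CPM. FLASH replicate 1 was highest in each class, and the difference of 1.41 (0.33 to 2.49, limma adjusted p = 0.709) was 0.17 in replicates 2 and 3 alone. All FLASH replicate 1 libraries are among the 5 at odds with their labels. Mpo, a granule enzyme of the same lineage, differed by 0.33 (-0.34 to 1). The summed level of the list ran from 75.6 to 307 CPM in FLASH, from 84 to 282 CPM in standard and from 88.9 to 1349 CPM in non-irradiated libraries. The list's part in other differences was not tested. Of 10 tested stem and progenitor cell genes, 6 had a positive and 4 a negative difference over the classes, with a median of 0.12. At unadjusted p below 0.05, 2 were higher and 1 lower in FLASH, beside 2.92% and 2.71% of all genes, and none was called. Kit, the stem cell factor receptor, had 0.615 ± 0.446 against 1.6 ± 1.11 CPM (-0.83, -1.40 to -0.26, adjusted p = 0.582). Cd34, a progenitor and endothelial marker, had 4.43, 3.63 and 5.65 against 1.49, 1.58 and 2.28 CPM in the Arg1-high class, without overlap, and over the classes a difference of 0.71 (0.38 to 1.04, adjusted p = 0.289).

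In the Irg1-high class no gene was called. The smallest adjusted p (limma) was 0.287, for Alpl, which lay under the 5 CPM set for named genes. Each other gene named here had an adjusted p of 1. Chic2, a palmitoylated membrane protein, had 53, 48.7 and 51.4 CPM after FLASH and 35.7, 33.1 and 36.5 CPM after standard protons, without overlap, a difference of 0.53 (0.27 to 0.80). Its non-irradiated libraries of that class had 47.2, 51.9 and 31.3 CPM and spanned both groups. Mcmbp, a partner of the replicative MCM helicase, had 69.4, 65 and 60.3 against 86.3, 83.6 and 79.2 CPM (-0.35, -0.53 to -0.18). Golga1, a golgin of the Golgi membrane, had 14.1, 13.1 and 14.3 against 7.52, 9.21 and 9.72 CPM (0.63, 0.31 to 0.94). Both separated the modes in this class and overlapped in the other classes. Dph3, Myo6 and Enpp6 had differences of 0.53, 0.95 and 1.26, and Vwa8, Btbd9 and Hlcs of -0.32, -1.45 and -1.79. Hlcs, the ligase that attaches biotin to carboxylases, varied within the FLASH group, at 0.665, 6.42 and 0.605 against 6.74, 6.28 and 6.99 CPM. Without FLASH M1 replicate 2, it was the 1 gene called in this class.

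The Arg1-high class held the only gene called in any of the 4 comparisons. Zfp462, a zinc finger protein of the nucleus, had 11.2, 12.6 and 7.57 CPM in the FLASH libraries and 0.631, 0.957 and 0.963 CPM in the standard libraries. The 3 non-irradiated libraries of that class had 1.68, 1.20 and 0.874 CPM, so the FLASH group stood apart from both others within the class. Over all classes the non-irradiated libraries ran from 0.874 to 6.34 CPM, with 3.54 ± 2.45 CPM (SD, n = 3) in the Irg1-high class. The difference between modes in the Arg1-high class was 3 on the log2 scale (2.25 to 3.75, adjusted p = 0.00206). In the Irg1-high class the same gene had 3.32, 1.49 and 1.49 against 1.04, 1.69 and 1.36 CPM (0.42, -0.33 to 1.17), with overlap. In the class low in both it had 1.47, 0.747 and 0.368 against 1.35, 2.57 and 3.61 CPM (-1.15, -1.90 to -0.40, adjusted p = 1), with overlap and the opposite sign. The contrast of the Arg1-high class with the class low in both was itself called, at 4.15 (3.09 to 5.21, adjusted p = 0.00281). It was 1 gene of 12906 in that contrast (0.00775%; 435, 3.37%, at unadjusted p below 0.05), while the Irg1-high class against the class low in both gave 0 called (0%; 391, 3.03%, unadjusted, 1.46% higher and 1.57% lower). In the Arg1-high class Zfp462 was called in 27 of 30 alternatives, and in each of the 18 fits that left out 1 library. Leaving out a library of another class cannot move this difference, which stayed at 3 in those fits. Leaving out 1 library of the Arg1-high class gave 2.86 to 3.21. With states taken from the labels the difference was 2.31 (adjusted p = 1), without the 5 libraries at odds with their labels 2.81 (adjusted p = 0.136), and with replicates 2 and 3 alone 2.81 (adjusted p = 0.0573), so it was not called in these 3. The contrast with the class low in both was not called with states from the labels, but was called without the 5 libraries (adjusted p = 0.0445) and with replicates 2 and 3 alone.

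After Zfp462 the smallest p in the Arg1-high class was that of Trrap, the large adaptor of histone acetyltransferase complexes, with 91.1, 89.1 and 70.1 CPM after FLASH and 40.8, 46.7 and 50.3 CPM after standard protons (0.85, 0.54 to 1.16, adjusted p = 0.116). Its non-irradiated libraries had 68.7, 73.2 and 62.4 CPM, and in the other classes the modes overlapped. Ep400, the ATPase of one of those complexes, had 82.8, 66.1 and 71.9 against 54.6, 51.7 and 57.7 CPM (0.42, 0.23 to 0.61, adjusted p = 0.371). Idh3a, a subunit of mitochondrial isocitrate dehydrogenase, had 43.4, 40.5 and 50.2 against 17, 9.19 and 18 CPM (1.62, 0.85 to 2.39, adjusted p = 0.454). These 3 genes stood higher in FLASH without overlap. Usp42, a deubiquitinase, had 10.4, 10.9 and 10.5 against 22.5, 12.9 and 21 CPM (-0.76, -1.13 to -0.39, adjusted p = 0.454) and stood lower. The pseudogene Pgam1-ps2, with a difference of -4.64, can share reads with its parent gene and is uncertain. Cd3g, a chain of the T cell receptor complex, was at 0, 0 and 0.0452 against 1.62, 1.46 and 1.53 CPM. Of the 5 tested T and NK cell genes, 4 had a negative and 1 a positive difference in this class, with a median of -0.83. At unadjusted p below 0.05, 3 of the 5 were lower in FLASH, beside 2.68% of all genes, and none was called. The summed T and NK cell markers over all classes were 23.9 to 112 CPM in FLASH and 27.8 to 103 CPM in standard libraries. The part of such cells in the differences was not tested.

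In the class low in both, Glipr2, a Golgi-associated membrane protein, had 1.52, 2.16 and 1.24 CPM after FLASH and 4.15, 3.45 and 7.60 CPM after standard protons (-1.33, -1.92 to -0.74, adjusted p = 0.726). Non-irradiated libraries of that class had 12.5, 15.2 and 12.1 CPM, above both groups. Inhba, the subunit of activin A, had 2.77, 0.954 and 2.12 against 7.00, 3.21 and 7.02 CPM (-1.36, -2.04 to -0.67, adjusted p = 0.734), and the opposite order in the Arg1-high class, 4.63, 3.46 and 7.43 against 2.03, 3.29 and 2.85 CPM. The contrast between these classes was 2.13 (1.17 to 3.10, adjusted p = 0.925). Naa35, a subunit of an N-terminal acetyltransferase, had 28.5, 27.6 and 29 against 18.6, 18.4 and 18.2 CPM (0.61, 0.32 to 0.90, adjusted p = 0.726). Dsg2, a desmosomal cadherin, was at 9.32, 8.75 and 6.44 against 2.94, 3.25 and 2.68 CPM (1.31). Slco2a1, a prostaglandin transporter, had 2.12, 0.373 and 1.29 against 4.15, 5.42 and 6.34 CPM (-1.84), and Cdh2, N-cadherin, 2.56, 0.954 and 1.29 against 2.99, 6.94 and 5.61 CPM (-1.44). Groups of these genes did not overlap in this class, and none was called. Taf4a, Spata5 and Srp54b had differences of -1.06, -0.89 and -0.63, and Srp54b has near-identical copies between which reads could be split.

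Matrix genes leaned lower in FLASH in that class. Of 30 genes of TGF-beta signaling, matrix and fibrosis, 9 had an unadjusted p below 0.05, all lower in FLASH (2.09% of all genes were lower at that p), and none was called. Col3a1, a fibrillar collagen, had 1.17, 5.81 and 0.276 against 3.69, 13.5 and 7.70 CPM (-1.96, -3.67 to -0.24, adjusted p = 1), with overlap. The summed level of stromal and bone cell markers was 64.2, 179 and 26.5 CPM in the FLASH libraries and 102, 452 and 282 CPM in the standard libraries of this class, and 488, 162 and 429 CPM without irradiation. FLASH and standard sums overlapped. Of the 12 tested markers 5 had a positive difference and none was called, and the median was -0.50, between -1.03 and 0.01 when 1 library was left out. Some genes are on both lists, and the part of stromal cells in these differences was not tested. In the Irg1-high and Arg1-high classes 0 of the 30 matrix genes had an unadjusted p below 0.05, beside 3.32% and 5.43% of all genes. Whether the list differs between the classes was not tested.

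**Figure D4:**
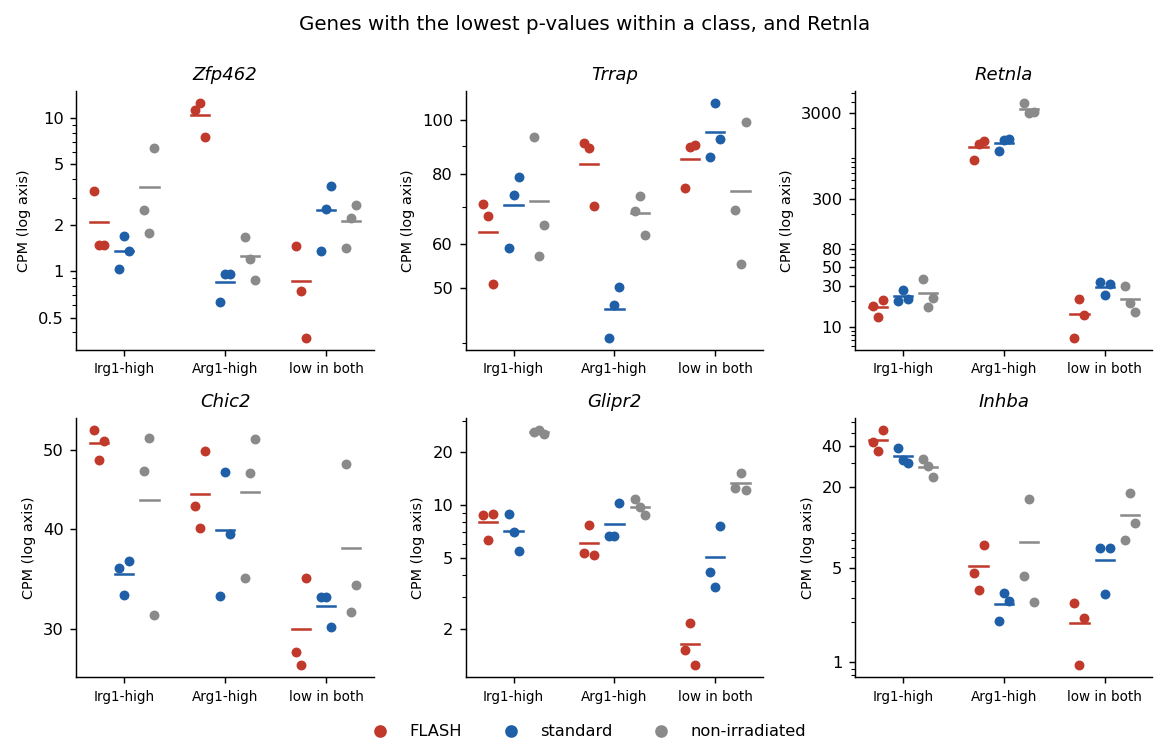
CPM on log axes of 6 genes in every library, by marker class (x axis) and irradiation (colour); dots are libraries and bars are means of 3. In the Arg1-high class the FLASH dots of Zfp462 lie at 7.57 CPM or more, above standard and non-irradiated dots at 1.68 CPM or less.

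Gut-type transcripts were treated as possible carry-over. Of the 10 genes named for their p in the mean over classes, Clca4, Reg4 and Muc13 are on the gut lists set with the other lists. Plet1, Apob, Gsta4 and Lgals2 are only on a list drawn up after the values were seen, and AI747448, Zcchc8 and Cd34 are on no gut list. Clca4, a protein of gut epithelium, had 7.13 to 18.4 CPM (median 12.5) after FLASH and 5.46 to 11 CPM (median 5.92) after standard protons, a difference of 0.92 (0.56 to 1.27, adjusted p = 0.273). AI747448 had 2.65 to 13.6 CPM (median 9.39) against 0.810 to 5.26 CPM (median 1.78), a difference of 1.82 (1.21 to 2.43, adjusted p = 0.108), and 1.47 to 11.5 CPM without irradiation. Zcchc8, a scaffold of the nuclear RNA decay machinery, had 25.3, 31.1 and 31.5 against 24.5, 21.4 and 22.4 CPM in the Irg1-high class, 24.1, 25.5 and 22 against 18, 17.4 and 20.4 CPM in the Arg1-high class and 25.4, 26.3 and 28.9 against 21.7, 23.9 and 21.1 CPM in the class low in both. The groups did not overlap in any class, and the difference was 0.32 (0.19 to 0.46, adjusted p = 0.288); non-irradiated libraries had 23.4 to 34.3 CPM.

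The gut genes formed groups that ran in opposite directions. The sum of Gkn1, Gkn2 and Tff1, secreted proteins of the gastric surface, was 42.2, 48.7 and 37.9 CPM in the FLASH libraries of the Irg1-high class, 44.9, 41.2 and 61.2 CPM in the Arg1-high class and 80.02, 11.7 and 47.1 CPM in the class low in both. In the standard libraries it was 41.1, 1.94 and 3.67 CPM, then 11.1, 4.08 and 10.6 CPM, and then 4.11, 37.7 and 2.54 CPM in the same order. So 1 FLASH library, M0 replicate 2, lay near the low standard ones, and 2 standard libraries, M2 replicate 1 and M0 replicate 2, lay near the FLASH ones. The non-irradiated libraries had 2.70 to 72.6 CPM. Gkn1, Gkn2 and Tff1 differed by 2.12, 2.28 and 2.26 on the log2 scale over the classes (adjusted p = 0.289, 0.289 and 0.302), and 8 of the 10 tested stomach surface genes had a positive difference.

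Genes of the large intestine ran against them. Car1, a carbonic anhydrase of the colon, had 5.97, 8.18 and 18.5 CPM in the FLASH libraries of the Arg1-high class and 75, 66.1 and 75.5 CPM in the standard ones, without overlap. The sum of 12 such genes was 27.1, 34 and 45 against 172, 161 and 168 CPM in that class. In the Irg1-high class the sums were 85.8, 35.5 and 26.9 against 29.2, 88.3 and 156 CPM, and in the class low in both 41.7, 166 and 38.1 against 169, 95.4 and 87 CPM, with overlap in both. The 9 non-irradiated libraries had 41.4 to 93.5 CPM. All 12 differences were negative in each class, with a median of -1.18 over the classes and of -1.91 in the Arg1-high class, and none was called. The 17 tested genes of gut drug and lipid metabolism, such as Gsta1 and Apob, were all positive, with a median of 0.82, and none was called. These 3 groups were drawn up after the values were seen, so their counts only describe the pattern.

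**Figure D5:**
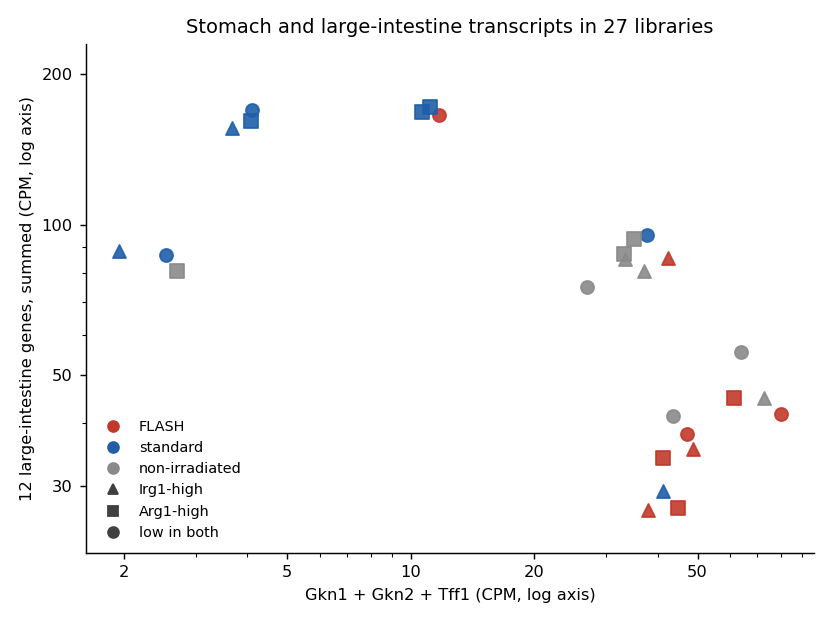
Summed CPM of Gkn1, Gkn2 and Tff1 (x, log axis) against the summed CPM of 12 large-intestine genes (y, log axis) in all 27 libraries, with colour for irradiation and shape for marker class. Of the FLASH libraries 8 lie at 37.9 CPM or more on the x axis and 1 at 11.7 CPM, and 7 of the standard libraries lie at 11.1 CPM or less.

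Some other gut genes had similar ranges in both modes. Lgals4, a galectin of gut epithelium, had 26.3 to 39.2 CPM in FLASH and 27.4 to 39.3 CPM in standard libraries. Muc2, the goblet cell mucin, had 5.02 to 11.5 and 5.78 to 9.38 CPM, and Krt8, a keratin of simple epithelium, 45.2 to 83.2 and 52.7 to 84.8 CPM. Epcam, the general marker of epithelial cells, was near 0, with 0 to 0.685 CPM in FLASH and at most 0.120 CPM in standard libraries, and so was Olfm4, a gut stem cell marker (0 to 0.132 and 0 to 0.343 CPM). The gut lists also hold genes that macrophages express, such as Anpep, an aminopeptidase of myeloid cells, at 342 to 1531 CPM in FLASH and 332 to 1274 CPM in standard libraries. Of the 34 tested genes of gut absorptive cells, 11 were higher and 6 lower in FLASH at unadjusted p below 0.05, beside 2.92% and 2.71% of all genes, and none was called. Of the 18 tested genes of gut secretory cells, 5 were higher and 2 lower at that p, and none was called. Muc13, a membrane mucin and one of the former, had 9.79 to 23 CPM in FLASH and 5.97 to 14.2 CPM in standard libraries (0.87, 0.49 to 1.26, adjusted p = 0.288). Where these transcripts came from was not tested, and several (Gsta, Cyp and Clca genes) have close paralogs between which reads could be split.

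The number of genes called over the classes depended on single libraries. Without standard M2 replicate 1, 21 of 12879 genes were called (0.163%), 18 higher and 3 lower in FLASH, and 19 of the 21 are on the gut lists. Of these, 2010109I03Rik, Alpi, Clca4, Muc13 and Reg4 are on the 3 gut lists set with the other lists, and 14 only on lists drawn up after the values were seen, so the count is a description. The other 2 were AI747448 and Ptms, parathymosin, with a difference of -0.66 (adjusted p = 0.00858). Gkn2 then rose by 2.64 (1.65 to 3.63) and Reg4 had a difference of -1.19 (-1.65 to -0.72). Without FLASH M0 replicate 2, the genes called were AI747448, Clca4, Plet1 and Reg4 (4 of 12882, 0.0311%), each at an adjusted p of 0.0177. Without standard M0 replicate 2 it was Uvssa alone (1 of 12877, 0.00777%), and without FLASH M1 replicate 2 Hlcs alone (1 of 12874, 0.00777%), lower in FLASH with a difference of -1.27 (-1.59 to -0.95, adjusted p = 0.00312). With the stomach covariate, which largely follows the mode, 0 genes were called in the mean over classes and 346 had an unadjusted p below 0.05. Zfp462 in the Arg1-high class was then called at 3.11 (limma adjusted p = 0.0260).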

How the data were processed

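Total RNA of bone marrow-derived macrophages was sequenced on a NovaSeq, per the labels. The submitters' processing notes name kallisto 0.46.1, R 4.0.5, edgeR 3.36.0 and the build GRCh38, a human one for mouse samples, so no coordinates are given. The authors deposited 1 table of 19069 gene symbols (and 1 row without a symbol, at most 0.008% of a library, left out); its deposited values are a CPM-like signal with column sums of 949950.3 to 1072727.2. In the 18 libraries 93.6% to 98.2% of nonzero values were whole multiples, within 0.01 read, of 1 read (0.0395 to 0.0488 CPM); since these are normalized values, no count model was used. Depth and library sums were read from those steps.

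The 12906 genes reaching 1 CPM in 3 or more of these libraries were fitted on log2(CPM + 0.5) with limma 3.58.1 (R 4.3.3, statmod 1.5.0; intensity trend, robust moderation), with 6 means of mode by class, 12 residual degrees of freedom and Benjamini-Hochberg adjustment over all genes; fold changes on this scale understate those of low genes. The script was tested on simulated data. Library quantities used an exact permutation test of 8000 exchanges within classes. Named genes were, per comparison, the called genes averaging 5 CPM or more in the higher mode and, below 10 of them, those with the smallest p, without predicted gene models and Riken clones (for the mean, same sign in all 3 classes), the member of each list with the smallest p, 25 marker genes and the gut genes; a few others are named to describe a count. The members, the 39 lists and the rule were chosen with earlier results of these data known, and 3 gut lists after the values were seen. Replicate numbers did not pair libraries and were no covariate. Alternatives changed the covariate, libraries, filter, pseudocount, scaling, moderation and model. Sequences were not used, and 1 gene that the rule names is not reported here.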

Additional observations from a re-analysis of the deposited data

Results flagged for a closer look

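The library FLASH M0 replicate 2 stood apart from the other FLASH libraries in its gut genes. Its summed level of the 12 large-intestine genes was 166 CPM, while the other 8 FLASH libraries had 26.9 to 85.8 CPM, and its summed level of the 17 genes of gut drug and lipid metabolism was 49.1 CPM, while the others had 75.0 to 97.6 CPM. Both are gaps wider than Dixon's critical value for 9 samples, which chance alone passes in about 1 group in 20 of like samples. The 9 libraries span 3 classes, and several library quantities were screened in both modes. Both gene lists were drawn up after the values were seen, so the gaps are a description. The difference of Zfp462 between FLASH and standard libraries was higher in the Arg1-high class than in the class low in both by 4.15 on the log2 scale (limma, adjusted p = 0.00281), and its sign was opposite in these classes (3 and -1.15).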

How the results depend on the processing

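The count of 0 genes called in the mean over classes became 2 (AI747448 and Clca4) in the additive model with replicate block and stayed 0 in the other alternatives that kept all libraries. With states from the labels the Arg1-high class and its contrast with the class low in both had 0 and 0 called genes; without the 5 libraries at odds and with replicates 2 and 3 only the class had 0, and with replicates 2 and 3 only the contrast had 2 (Arnt2, Zfp462). Without a filter the Irg1-high class had 4 called genes (Alpl, Gm6871, Sprr2g, Sucnr1) and its contrast 1 (Alpl), and without trend and robust moderation that contrast had 1 (Alpl); the cause was not tested. Leaving out 1 library gave 0 to 21 called genes in the mean, 0 to 1 in the Irg1-high class, 1 to 3 in the Arg1-high class, 0 to 1 in the class low in both, 0 in the contrast of the Irg1-high class and 1 to 3 in that of the Arg1-high class. The counts above the main ones in the mean came without standard M2 replicate 1 (21), FLASH M0 replicate 2 (4), FLASH M1 replicate 2 (1, Hlcs) and standard M0 replicate 2 (1, Uvssa); in the Arg1-high class without FLASH M2 replicate 3 (3), FLASH M1 replicate 3, standard M1 replicate 1 and standard M2 replicate 2 (2 each); and without standard M0 replicate 3 in the class low in both (1, Tubgcp2) and the contrast of the Arg1-high class (3). At unadjusted p below 0.05 the mean had 338 genes with states from the labels, 346 with the stomach covariate, 1118 without the 5 libraries, 1121 with replicates 2 and 3 and 1127 (5.91% of 19057) without a filter, beside 727 (5.63%); the Arg1-high class had 180 with states from the labels and 1103 (5.79%) without a filter, beside 701 (5.43%); the class low in both 327 and 910 (4.78%), beside 555 (4.3%); and the Irg1-high class 648, 653 and 755 (3.96%) without the 5 libraries, with replicates 2 and 3 and without a filter, beside 429 (3.32%). Replicate numbers did not pair libraries: correlations of deviations were -0.21 to 0.14 over 9 same-numbered pairs, with 1 of 9 libraries closest to its own number. The replicate block gave 0, 0, 1 and 0 called genes in the mean, the Irg1-high class, the Arg1-high class and the class low in both. Of the values of named genes under alternatives, 4010 kept sign and side of the threshold, 53 differed in sign with no call, 29 became called and 3 were no longer called, all of Zfp462. Only Zfp462 was called in the main fit, so for the other genes keeping the side of the threshold meant staying uncalled. Leaving out a library of another class could not move a difference within a class. These counts therefore say little about how firm the results are. With 3 libraries per mode in a class, the 95% interval lay within 1 log2 unit of 0 for 82.1% to 82.8% of genes. Among genes averaging 5 CPM or more it did so for 94.5% to 95%. Differences under 1 log2 unit in genes of a few CPM can therefore lie within the error.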
